A study of Mus musculus with 4 samples.

Results

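The Hox genes of the 4 clusters were read in single-nucleus RNA libraries of mouse fat. The members were all genes whose symbol is Hox followed by a, b, c or d and digits only, 39 of the 32285 genes counted. HoxA held 11 of them, HoxB 10, HoxC 9 and HoxD 9. Each cluster lies on its own chromosome (6, 11, 15 and 2). Of the 39, 28 had at least 50 unique molecular identifiers (UMIs, each a counted RNA molecule) over the libraries in 1 or more of the 5 classes of nuclei described here, and 11 did not.

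All mice were on a high-fat diet, and the labels give a sham group and a surgery group in a study of bariatric surgery. Tissue was labelled brown adipose tissue (BAT) or beige adipose tissue (BeAT), so that the groups are the 4 combinations of tissue label and operation. Each group was 1 library of nuclear RNA, and the labels give no strain, age, sex, depot site, time after surgery or number of animals. With 1 library per group there was no replicate check and no test: a difference between libraries here is a difference between those libraries, and every interval (95%) covers counting error only.

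Hox genes encode homeodomain transcription factors that set position along the body axis. Genes of 1 cluster lie in the order in which they act from head to tail, and those of corresponding position in the 4 clusters form paralogue groups, numbered from the anterior end. Stromal cells and adipocytes keep Hox expression that differs between fat depots of the trunk, so that anterior groups mark anterior origin and posterior groups (9 to 13) mark posterior origin. Hox proteins bind DNA with partners of the TALE class (Pbx, Meis and Pknox proteins), and Polycomb and trithorax complexes keep the clusters silent or active.

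Lists of 4 values below run through the BAT libraries first (sham, then surgery) and the BeAT libraries next (sham, then surgery). The deposited libraries held 23118695 to 60409801 UMIs. After filtering, 9970, 9131, 9760 and 5302 nuclei remained, with median UMIs per nucleus from 2647 to 5168. Libraries shared 36 to 73 barcodes pair by pair. The tissue labels went against brown fat genes. Ucp1, the uncoupling protein of brown fat, had 2, 0, 3 and 0 UMIs in adipocyte-like nuclei, and Zic1, a marker of classical brown fat, had 1, 0, 0 and 0. The library labelled BAT surgery held 5644 epithelial-like nuclei (61.8% of its nuclei), led by epididymal genes such as Defb47, Adam7 and Spag11b, and the other libraries held 0. Groups are therefore named by their labels only. The nuclei of BeAT surgery were 35.8% B cell-like and 30.8% T or natural killer cell-like, against 0.482% and 2.10% in BeAT sham.

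Classes were set from marker genes, and none of the 39 Hox genes was among the variable genes used for clustering. Adipocyte-like nuclei numbered 4127, 573, 4894 and 513. Progenitor-like nuclei numbered 1767, 544, 928 and 164, and endothelial-like nuclei 738, 163, 538 and 105. Smooth muscle-like nuclei, gated by their own markers, numbered 75, 90, 72 and 14. The classes were not made of the same clusters in each library. Of BAT surgery adipocyte-like nuclei, 94.4% lay in a cluster with almost no nuclei of other libraries (3 from BeAT surgery), while the sham adipocytes lay in 3 other clusters. Of BeAT surgery adipocyte-like nuclei, 75.0% lay in 1 of those 3. Of BAT surgery progenitor-like nuclei, 95.4% lay in cluster 9, led by C7, Lama2 and Zfpm2, which held 8.83%, 7.54% and 23.2% of progenitors in BAT sham, BeAT sham and BeAT surgery.

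Levels are UMIs per 1000000 UMIs of the class in that library (CPM). They were set as counted, with no division by length, so levels are compared between libraries for 1 gene and not between genes. Overlaps between genes limit some values: by GENCODE M21 (GRCm38), 11 members overlap another gene on the same strand and 14 on the opposite strand, 19 in all. Hoxa3 (6:52169062-52213336, minus strand) spans Hoxa4, Hoxa5 and Hoxa6. Hoxc5 (15:102967443-103017429, plus strand) spans Hoxc6, Hoxc8 and Hoxc9 and overlaps Hoxc10. Hoxd3 (2:74711927-74748442) and Hoxd4 (2:74711929-74729160) overlap from their first bases. Whether the counting used strand or split shared reads is not given in the sources used here, so values of those genes are uncertain. Hoxa9 (6:52223100-52231089, minus strand) and Hoxa10 (6:52231197-52240854, minus strand) overlap no other gene.

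Promoter stretches from RefSeq (GRCm38.p6), the 250 bases before a RefSeq start, were found for 22 Hox genes in 24 stretches. Those shown for Hoxa9, Hoxa10 and Hoxd4 lie inside the GENCODE spans given above, before a start within the gene. The 4 shown are of genes at the posterior edge of the pattern described below (Hoxa9, Hoxa10), of the HoxD gene that was higher where those were lower (Hoxd4), and of a HoxB gene with a match to a Hox partner motif (Hoxb8). Capitals mark matches, on either strand, to TGATNNAT, a composite motif of Pbx and Hox proteins.
Hoxa9, chr6:52227371-52227620, minus strand: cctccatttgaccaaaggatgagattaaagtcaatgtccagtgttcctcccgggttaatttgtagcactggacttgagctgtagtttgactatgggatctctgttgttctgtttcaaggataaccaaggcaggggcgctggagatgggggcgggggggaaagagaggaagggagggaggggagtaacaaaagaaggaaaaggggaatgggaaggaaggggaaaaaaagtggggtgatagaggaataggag
Hoxa10, chr6:52234940-52235189, minus strand: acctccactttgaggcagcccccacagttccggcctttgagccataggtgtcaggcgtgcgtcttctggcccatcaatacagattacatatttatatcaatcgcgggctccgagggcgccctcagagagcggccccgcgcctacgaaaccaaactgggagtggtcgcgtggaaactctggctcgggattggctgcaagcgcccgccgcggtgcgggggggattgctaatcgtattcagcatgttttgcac
Hoxb8, chr11:96281655-96281904, plus strand: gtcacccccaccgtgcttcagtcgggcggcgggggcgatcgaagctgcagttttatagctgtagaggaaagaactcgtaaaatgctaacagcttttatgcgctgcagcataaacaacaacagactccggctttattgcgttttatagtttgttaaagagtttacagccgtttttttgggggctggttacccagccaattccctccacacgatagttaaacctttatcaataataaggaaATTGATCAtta
Hoxd4, chr2:74721728-74721977, plus strand: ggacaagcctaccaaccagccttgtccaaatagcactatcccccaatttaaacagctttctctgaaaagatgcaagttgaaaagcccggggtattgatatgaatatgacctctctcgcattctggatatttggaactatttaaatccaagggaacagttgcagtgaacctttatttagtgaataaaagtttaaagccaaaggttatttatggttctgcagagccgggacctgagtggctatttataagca
TGATNNAT was found in 4 of 24 Hox stretches (16.7%) and in 7.68% of 32851 stretches of that length over all genes. TATAAA, the core of a TATA box, was found in 4 Hox stretches (16.7%) and in 12.4% of all. The motifs overlapped in 0 Hox stretches. Hox stretches had a median GC content of 58.6% and a median of 12.5 CpG dinucleotides, against 52.4% and 6 over all genes. Their CpG number ran from 2 to 35, with 3 in the stretches of Hoxa9 and Hoxd4 and 20 in that of Hoxa10. Matches are descriptions of sequence and not binding sites.

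In sham adipocytes, HoxA and HoxC carried most Hox RNA. The sum over the 39 genes was 550, 263, 528 and 423 CPM. HoxC made 52.3%, 40.5%, 52.4% and 50.6% of Hox UMIs, and HoxA made 35.8%, 12.8%, 35.1% and 32.3%. HoxB made 7.01%, 24.5%, 9.04% and 13.4%, and HoxD 4.93%, 22.1%, 3.50% and 3.64%. With each gene's UMIs divided by its exon length, the order of the libraries was the same for HoxD (4.8%, 19.5%, 3.33% and 3.35% of the sum). BAT surgery therefore stood apart from the other 3 libraries, with a smaller share from HoxA and larger shares from HoxB and HoxD.

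**Figure D1:**
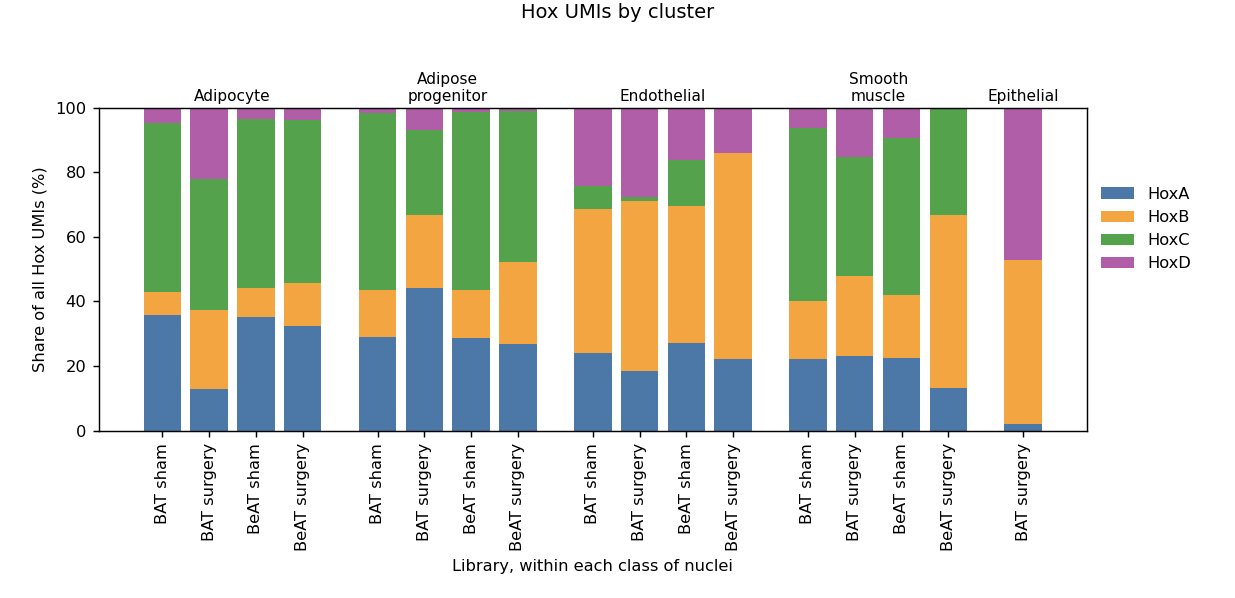
Bars give the share of all Hox UMIs (%) from HoxA, HoxB, HoxC and HoxD, for each library within each class of nuclei (1 library per bar, no error shown). HoxC made 52.3% and 52.4% of Hox UMIs in sham adipocytes and 0.122% in the epithelial nuclei of BAT surgery.

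The posterior genes of HoxA and HoxC that could be read were nearly missing from BAT surgery adipocytes. Those of HoxB and HoxD had too few UMIs to read: Hoxd9 had 12 and 3 in BAT sham and BAT surgery, and Hoxb9 had 0 and 2. Hoxa9, a posterior gene with a role in blood cells and limb skeleton, had 2118, 2, 1433 and 187 UMIs (83.0, 0.550, 68.6 and 41.7 CPM). Hoxa10, which patterns the lumbar axis and the reproductive tract, had 245, 0, 159 and 22 UMIs (9.60, 0, 7.62 and 4.90 CPM, where 3 counts in place of 0 give 0.825). BAT surgery was the low library for both, and both shams and BeAT surgery were far above it. Hoxa9 was 151-fold lower in BAT surgery than in BAT sham (interval 41.7 to 1247). Hoxa10 was 11.6-fold lower with 3 counts in place of 0, and its interval reached a ratio of 0.106.

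The same edge was seen in HoxC. Hoxc9, expressed in the thoracic axis and used as a marker of white and beige fat, had 609, 5, 472 and 95 UMIs (23.9, 1.37, 22.6 and 21.2 CPM). Hoxc10, also posterior and used as a marker of subcutaneous fat, had 471, 0, 479 and 58 UMIs (18.5, 0, 22.9 and 12.9 CPM). Again only BAT surgery was near or at 0. Hoxc9 was 17.4-fold lower there than in BAT sham (7.40 to 53.7). Hoxc10 was 22.4-fold lower with the limit of 0.825 CPM in place of 0. That fold is not a lower bound, since the interval of the Hoxc10 level in BAT surgery reached 1.01 CPM.

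The next more anterior genes were lower by smaller folds and remained well detected. Hoxa7, a trunk gene, had 903, 27, 791 and 97 UMIs (35.4, 7.42, 37.9 and 21.6 CPM), 4.77-fold lower in BAT surgery than in BAT sham (3.25 to 7.27). Hoxc8, a gene of the thoracic axis and of brachial motor neurons, had 2560, 118, 2236 and 263 UMIs (100, 32.4, 107 and 58.6 CPM), 3.09-fold lower (2.57 to 3.75). Both were low in BAT surgery, with BeAT surgery between it and the shams. Summed over groups 9 to 13, levels were 136, 3.30 (1.70 to 5.76), 122 and 80.6 CPM.

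**Figure D2:**
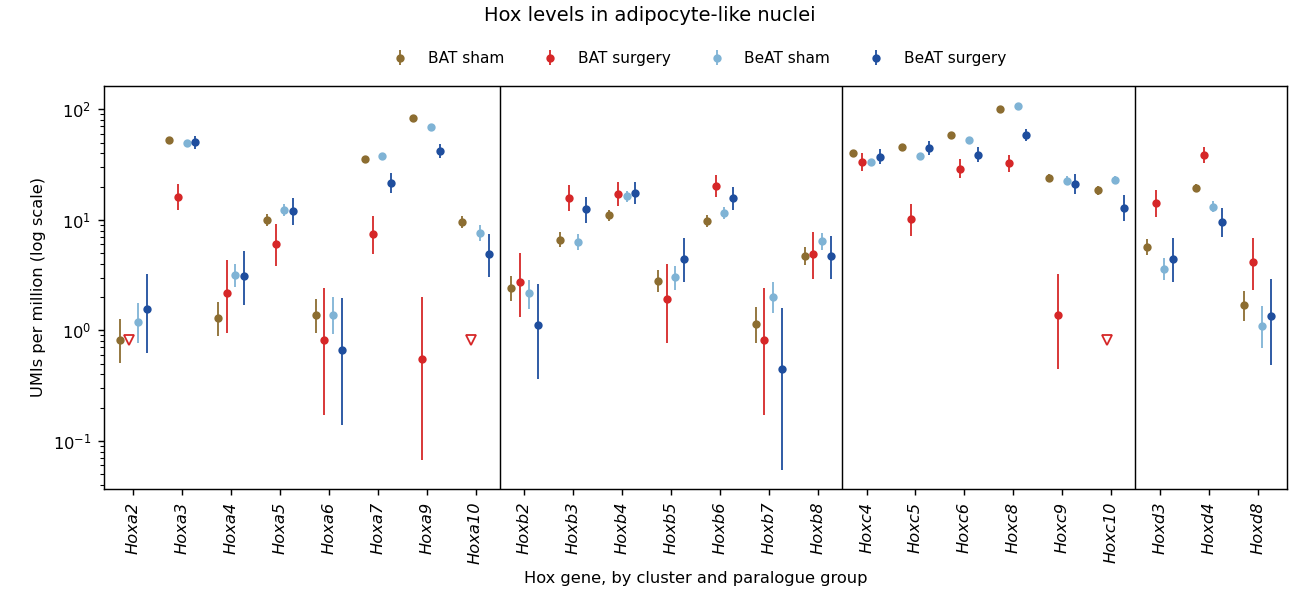
Points give the level of each of 24 Hox genes in adipocyte-like nuclei (CPM, log axis) for the 4 libraries, with exact Poisson 95% intervals as bars. Open triangles mark 0 UMIs, placed at the level of 3 counts. The red points of BAT surgery lie lowest for Hoxa9 (0.550), Hoxc9 (1.37) and Hoxc10 (0 UMIs) and highest for Hoxd3 (14.3) and Hoxd4 (39.0).

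Anterior and middle genes of HoxA and HoxC were lower or alike. Hoxa3, which patterns the pharyngeal arches, had 1351, 59, 1043 and 225 UMIs (52.9, 16.2, 50 and 50.1 CPM), with BAT surgery low and the other 3 close together, 3.26-fold lower than BAT sham (2.51 to 4.31). Hoxa5, known for lung and cervical vertebrae, was at 9.95, 6.05, 12.3 and 12.0 CPM, 1.65-fold lower (1.06 to 2.67), which did not pass the size rule. Hoxc4 was at 40.5, 33.5, 33.2 and 37.4 CPM, with all 4 libraries close. Hoxc5 was at 45.7, 10.2, 37.6 and 45.0 CPM, 4.49-fold lower (3.24 to 6.41), and Hoxc6 at 58.6, 29.1, 53.0 and 39.0 CPM, 2.01-fold lower (1.65 to 2.47). The value of Hoxc5 shares its span with Hoxc8, Hoxc9 and Hoxc10 and cannot be told apart from theirs at shared positions.

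The called genes of HoxD, and 2 of HoxB, were higher in BAT surgery. Hoxd4, of the hindbrain and cervical axis, had 493, 142, 275 and 43 UMIs (19.3, 39.0, 13.2 and 9.58 CPM) and was 2.02-fold higher in BAT surgery than in BAT sham (1.66 to 2.44). Hoxd3 was at 5.64, 14.3, 3.59 and 4.46 CPM, 2.53-fold higher (1.81 to 3.50), and Hoxd8 at 1.68, 4.12, 1.10 and 1.34 CPM, 2.45-fold higher (1.26 to 4.49). BAT surgery was the highest library for all 3. Hoxb3 was at 6.62, 15.9, 6.32 and 12.5 CPM, 2.41-fold higher (1.75 to 3.26), and Hoxb6 at 9.84, 20.3, 11.5 and 15.8 CPM, 2.07-fold higher (1.57 to 2.69). For Hoxb3 and Hoxb6 both surgery libraries were above both shams. The level of Hoxb3 in each surgery library was not far above that in macrophages of the same library, given below. Hoxb4 was at 11.0, 17.3, 16.3 and 17.6 CPM, with BAT sham below the other 3 by less than 2-fold (BAT surgery over BAT sham 1.58, 1.18 to 2.08). Hoxb8 was at 4.74, 4.95, 6.37 and 4.68 CPM, 1.04-fold (0.598 to 1.72) in the BAT pair. The other described genes were low in adipocytes: Hoxb5 was at 2.82, 1.92, 3.02 and 4.46 CPM and Hoxb2 at 2.43, 2.75, 2.16 and 1.11. Hoxa2, Hoxa6 and Hoxb7 lay between 0 and 2.01 CPM in every library.

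Macrophage-like nuclei of the same libraries were read as a gauge of free RNA, and there Hox genes gave 89.2, 67.1, 86.7 and 53.7 CPM. These values do not tell free RNA from Hox RNA of the macrophages themselves. In BAT surgery macrophages, Hoxb3 was at 15.1 CPM, Hoxb4 at 13.6 and Hoxb6 at 8.57. Hoxb3 and Hoxb4 of BAT surgery adipocytes (15.9 and 17.3) were near those levels, and whether they are free RNA was not tested. Hoxd3 and Hoxd4 were at 2.96 and 4.43 CPM there, against 14.3 and 39.0 in adipocytes. Gpx5, a secreted epididymal enzyme, was at 581 CPM in BAT surgery adipocytes, 1037 in its macrophages, 4778 in its epithelial nuclei and 0 in the adipocytes of the other libraries. The 7 epithelial markers summed to 2.43, 22.3, 0.287 and 0.668 CPM in adipocytes, with 6 of 7 having a UMI in BAT surgery. The part of such RNA in the HoxB and HoxD levels of BAT surgery adipocytes was not tested. For the posterior genes, macrophages of BAT surgery had 0 UMIs of Hoxa9, Hoxa10, Hoxc9 and Hoxc10.

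By the size rule (at least 50 UMIs in both libraries together, at least 2-fold, interval without 1), 21 Hox genes could be read for BAT surgery over BAT sham in adipocytes, while 7 were below the minimum and 11 at 0 in both. Of the 21, 5 were higher (Hoxb6, Hoxd3, Hoxd4, Hoxd8 and Hoxb3), where 5.42% of 13096 genes were. Of these, Hoxb3 was near its level in macrophages. Another 10 were lower (among them Hoxa3, Hoxa7, Hoxa9, Hoxa10, Hoxc5, Hoxc6, Hoxc8, Hoxc9 and Hoxc10), where 12.0% of all genes were. The median log2 ratio of the 21 was -0.72, against -0.07 over all genes. With a per-nucleus marker gate in place of clusters 2 were higher (4.56% of all genes), and with nuclei thinned to 1000 UMIs 0 were (4.90%). The count of lower genes was 8 under each.

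BeAT surgery and BeAT sham adipocytes differed much less. Of 21 Hox genes read, 0 were higher (4.81% of 12589 genes) and 1 was lower (15.1% of all genes), with a median log2 ratio of -0.10 against -0.09. Below the 2-fold limit, Hoxa9 was 1.65-fold lower (1.41 to 1.93), Hoxa7 1.75-fold lower (1.42 to 2.19), Hoxc8 1.83-fold lower (1.61 to 2.09) and Hoxc10 1.78-fold lower (1.35 to 2.37). Hoxc9 was 1.07-fold lower (0.855 to 1.35), so its counting interval held no change. Hoxb3 was 1.97-fold higher (1.42 to 2.72), and its level in BeAT surgery was not far above that in macrophages of that library, given below.

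The shams, labelled as different tissues, were close to each other. Of 24 Hox genes read in adipocytes of BAT sham over BeAT sham, 0 were higher (1.78% of 14000 genes) and 1, Hoxa4, was lower (1.09% of all genes), at 1.29 against 3.16 CPM, 2.44-fold (1.59 to 3.83). Hoxc9 was at 23.9 and 22.6 CPM and Hoxa9 at 83.0 and 68.6. The surgery libraries differed more, with 15 Hox genes read. Of these, 2 were higher in BAT surgery than in BeAT surgery (Hoxd3, 3.21-fold, and Hoxd4, 4.08-fold), where 4.36% of 9664 genes were, and 6 were lower (Hoxa3, Hoxa7, Hoxa9, Hoxc5, Hoxc9 and Hoxc10), where 3.71% were.

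The same 4 posterior genes were also counted by nuclei. The UMIs are those of the levels above, so these shares restate that result and add no separate support. Their intervals take nuclei of 1 library as units. A UMI of Hoxa9, Hoxa10, Hoxc9 or Hoxc10 was found in 48.1%, 1.22%, 36.0% and 38.6% of adipocyte-like nuclei. With each nucleus thinned to 1000 UMIs, leaving out 109, 37, 199 and 14 shallower nuclei, the shares were 13.6% (12.6 to 14.7), 0% (0 of 536, 0 to 0.686), 12.1% (11.2 to 13.1) and 7.82% (5.62 to 10.5). Macrophages had thinned shares of 1.10%, 0%, 0.778% and 0.273%, so adipocytes of the 3 other libraries were above their macrophages and those of BAT surgery were not. Whether macrophages express these genes themselves was not tested. Median depths of the adipocytes were 5859, 6328, 4149 and 8829 UMIs and of the macrophages 3196, 3004, 2525 and 3269. Among sham adipocytes the 4 genes were at 128 to 150 CPM in the 3 clusters of BAT sham and at 116 to 129 in those of BeAT sham, and at 1.95 in the BAT surgery cluster. In BeAT surgery they were at 91.0 and 54.1 CPM in its 2 main clusters.

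**Figure D3:**
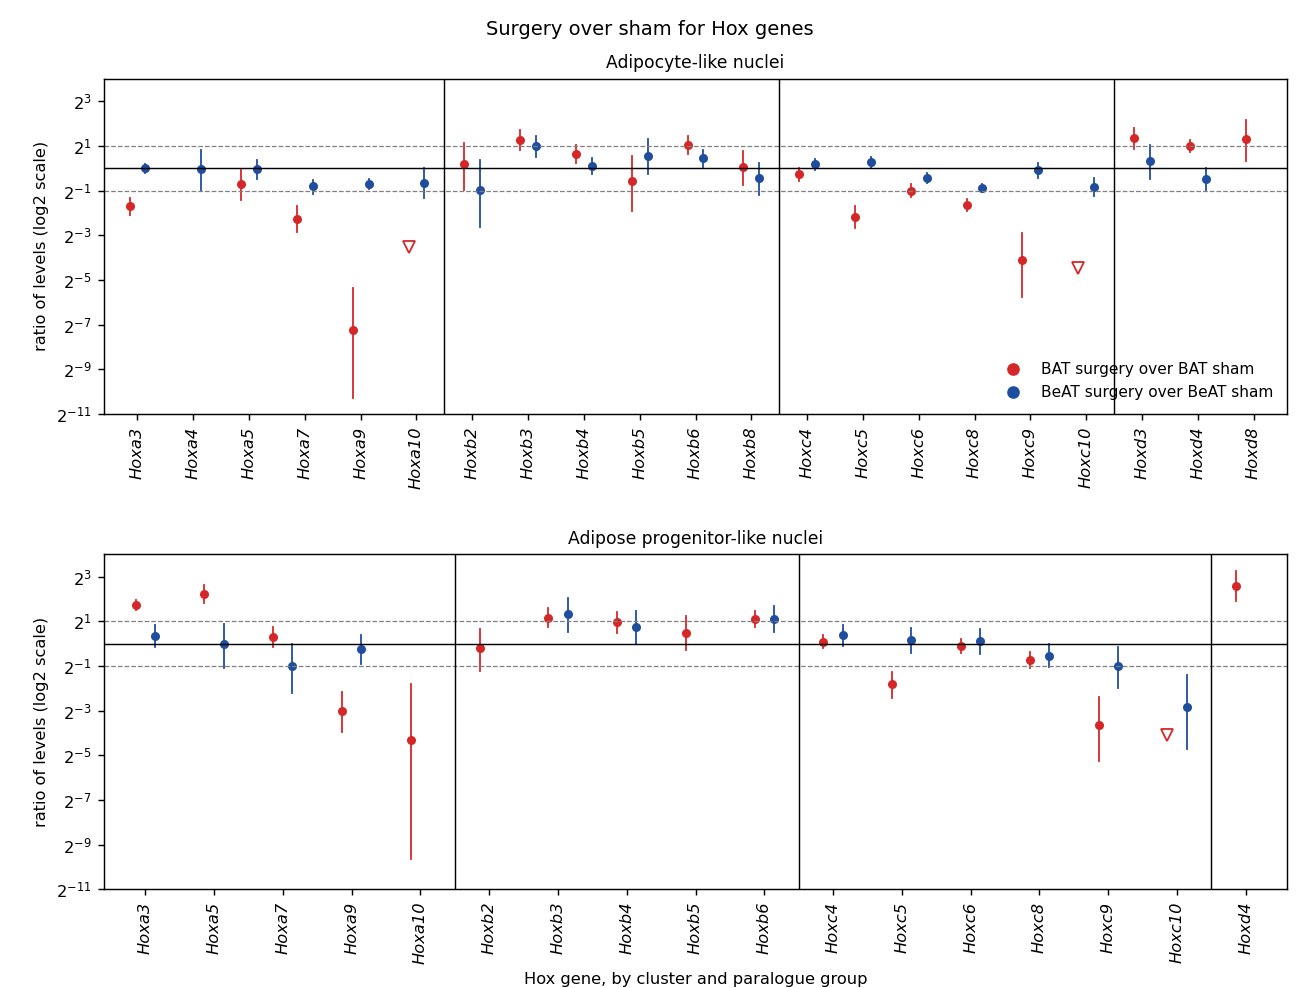
Points give the ratio of levels, surgery over sham (log2 axis), for each Hox gene with at least 50 UMIs in a pair, in adipocyte-like nuclei (top) and progenitor-like nuclei (bottom). Bars are exact 95% counting intervals, open triangles 0 UMIs in surgery with 3 counts in place of 0, and dashed lines 2-fold. Hoxa9 (0.00662) and Hoxc9 (0.0576) of the BAT pair lie lowest among the adipocyte points with a count.

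Progenitor-like nuclei, named from markers of adipocyte precursors, showed the same posterior edge in HoxA and HoxC with a different anterior pattern. The per-nucleus marker gate named 971, 90, 553 and 59 nuclei as progenitors, where clusters gave 1767, 544, 928 and 164. Whether the class holds the same cell type in each library was not tested. Hoxa9 had 360, 12, 140 and 26 UMIs (48.7, 6.05, 47.4 and 40.1 CPM), 8.05-fold lower in BAT surgery than in BAT sham (4.55 to 15.7). Hoxa10 had 75, 1, 36 and 4 UMIs, a ratio of 0.0497 (0.00124 to 0.285). Hoxc9 had 230, 5, 109 and 12 UMIs (31.1, 2.52, 36.9 and 18.5 CPM), 12.3-fold lower (5.21 to 38.4). Hoxc10 had 188, 0, 128 and 4 UMIs, 16.8-fold lower with 3 counts in place of 0, and its interval reached a ratio of 0.0738. BAT surgery was again the lowest library for each, and in BeAT surgery Hoxc10 was 7.02-fold below its sham (2.68 to 26.2) and Hoxc9 1.99-fold (1.10 to 3.98), under the 2-fold limit.

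Hoxa3 and Hoxa5 were higher in BAT surgery progenitors. Hoxa3 had 421, 376, 160 and 45 UMIs (57.0, 190, 54.1 and 69.4 CPM), 3.33-fold higher in BAT surgery than in BAT sham (2.89 to 3.83). Hoxa5 had 103, 129, 56 and 12 UMIs (13.9, 65.1, 19.0 and 18.5 CPM), 4.67-fold higher (3.57 to 6.11). Hoxd4 was at 4.47, 26.7, 3.05 and 0 CPM, 5.98-fold higher (3.80 to 9.54). Hoxb3 was at 17.5, 39.3, 14.9 and 37.0 CPM and Hoxb6 at 24.5, 52.4, 28.4 and 61.7, so both surgery libraries were about alike and above both shams. Hoxc8 (68.8, 41.9, 84.6 and 58.6 CPM), Hoxc6 (55.6, 51.9, 46.7 and 50.9) and Hoxc4 (62.3, 66.6, 58.2 and 75.6) stayed within 2-fold.

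Of 17 Hox genes read in progenitors for BAT surgery over BAT sham, 5 were higher (Hoxa3, Hoxa5, Hoxb3, Hoxb6 and Hoxd4), against 7.20% of 11506 genes, and 5 were lower (Hoxa9, Hoxa10, Hoxc5, Hoxc9 and Hoxc10), against 12.0%. Within cluster 9 alone, chosen after the data were seen, 5 were higher (8.02% of all genes read there) and 1 lower (5.40%). The higher genes were then Hoxa3 (4.01), Hoxa5 (6.59), Hoxa7 (5.55, 1.80 to 27.7), Hoxb4 (2.74, 1.25 to 7.09) and Hoxd4 (2.38, 1.08 to 6.20). Hoxb3 (1.47, 0.850 to 2.71) and Hoxb6 (1.35, 0.852 to 2.23) were no longer called. The 1 lower gene was Hoxc5 (0.247, 0.142 to 0.426). Hoxa9 had a ratio there of 0.209 (0.0920 to 0.459) and Hoxc9 of 0.0654 (0.0195 to 0.175), and Hoxc10 had 0 UMIs in BAT surgery. These were below the minimum and not called: with Hoxa10 they summed to 58 UMIs in BAT sham and 18 in BAT surgery. For BeAT surgery over BeAT sham, 13 were read, with 2 higher (Hoxb3 and Hoxb6; 5.23% of 8585 genes) and 2 lower (Hoxa7 and Hoxc10; 16.7%). Between the shams 16 were read, with 0 higher (2.06% of 11611 genes) and 0 lower (0.947%). Between the surgery libraries 11 were read, with 3 higher in BAT surgery (Hoxa3, Hoxa5 and Hoxd4; 9.70% of 7127 genes) and 1 lower (Hoxc5; 4.50%). The 7 mesothelial markers summed to 5.01, 695, 7.78 and 40.1 CPM in progenitors, with all 7 having a UMI in BAT surgery, and Gpx5 was at 1088 CPM there; their part in the Hox levels was not tested.

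HoxB was the largest share of Hox UMIs in endothelial-like nuclei and HoxC the smallest. HoxB made 44.6%, 52.5%, 42.5% and 63.7% of their Hox UMIs, and HoxC 7.38%, 1.27%, 14.2% and 0%. HoxA made 23.9%, 18.5%, 27.1% and 22.3%, and HoxD 24.1%, 27.7%, 16.2% and 14%. In BAT sham their HoxC level, 36.5 CPM, was near that of macrophages (36.0), and whether it is free RNA was not tested. In BeAT sham it was 73.0 CPM against 37.1. Adipoq, the adipocyte hormone, was at 468, 44.4, 540 and 41.1 CPM in endothelial nuclei, so adipocyte RNA was higher in both shams. In macrophages it was lower, at 185, 10.6, 239 and 18.6 CPM, so macrophages understate the adipocyte RNA in endothelial nuclei. Hoxb6, a trunk gene, had 152, 72, 82 and 37 UMIs (78.1, 152, 63.0 and 138 CPM), with both surgery libraries above both shams. Hoxb3 was at 33.4, 73.9, 26.1 and 74.7 CPM, 2.21-fold higher in BAT surgery than in BAT sham (1.42 to 3.39) and 2.86-fold higher in BeAT surgery than in BeAT sham (1.56 to 5.12). Hoxa7 had 59, 1, 53 and 1 UMIs, a ratio of 0.0696 (0.00173 to 0.403) in the BAT pair and 0.0918 (0.00228 to 0.534) in the BeAT pair. Hoxa7 was thus low in both surgery libraries. Macrophages of the shams had 7.23 and 4.63 CPM against 30.3 and 40.7 in sham endothelium. Sham adipocytes had Hoxa7 at 35.4 and 37.9 CPM, and the part of adipocyte RNA in the endothelial level was not tested. In BAT surgery endothelium Gpx5 was at 2579 CPM and the 7 epithelial markers summed to 57.0 CPM, against 1.54, 0.768 and 0 in the other libraries in order. Their part in the Hox levels was not tested, and macrophages of both surgery libraries had Hoxb3 at 15.1 and 9.28 CPM.

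By the size rule, 8 Hox genes were read in endothelial nuclei for the BAT pair, with 2 higher (Hoxb3 and Hoxd3; 5.61% of 7117 genes) and 1 lower (Hoxa7; 15.0%). In the BeAT pair 7 were read, with 3 higher (Hoxb3, Hoxb4 and Hoxb6; 10.1% of 5643 genes) and 1 lower (Hoxa7; 21.1%). Between the shams 14 were read, with 0 higher (1.92% of 8216 genes) and 1 lower (Hoxc8, 23 against 43 UMIs; 2.50%). Between the surgery libraries 5 were read, with 1 higher in BAT surgery (Hoxd4, 2.66-fold, 1.32 to 5.90; 5.30% of 3133 genes) and 0 lower (2.49%). Under the marker gate 1 was higher (6.62% of all genes) and 0 lower (14.1%) in the BAT pair. In the BeAT pair 0 were higher (13.4%) and 0 lower (20.2%). With nuclei thinned to 1000 UMIs the counts were the same (6.68% and 11.1% of all genes in the BAT pair, 11.3% and 18.3% in the BeAT pair). The BeAT calls thus did not hold under either. Posterior levels were low throughout, at 41.1, 21.1, 53.0 and 22.4 CPM for groups 9 to 13.

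**Figure D4:**
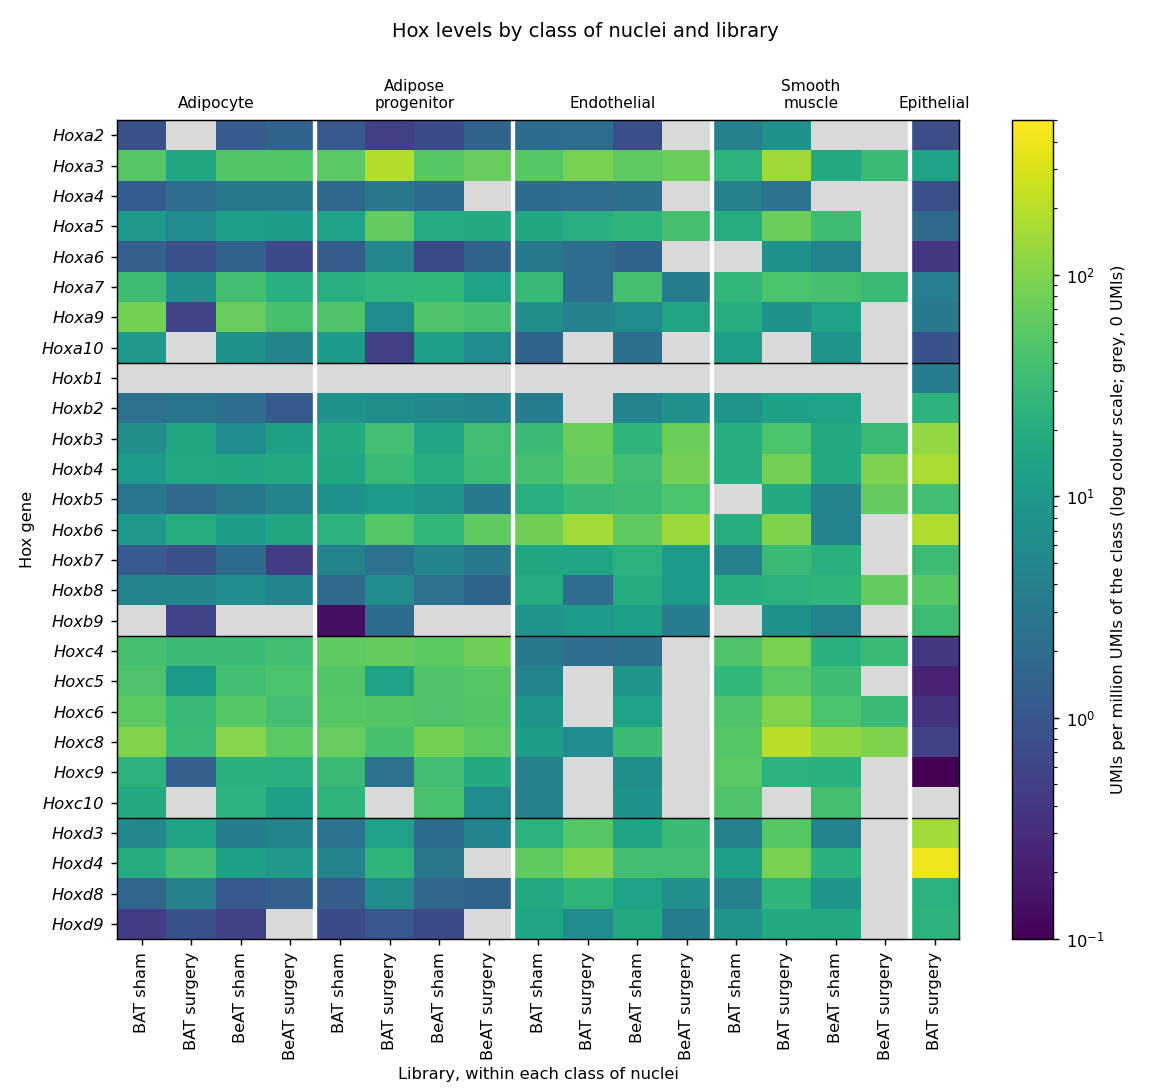
Colour gives the level of 27 Hox genes (rows; CPM, log colour scale; grey, 0 UMIs) in each library within 5 classes of nuclei (columns). Hoxc10 is at 0 UMIs in BAT surgery in all 5 classes, and epithelial nuclei have their highest values in Hoxd4 (408) and Hoxb6 (179).

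Smooth muscle-like nuclei were few. Of 90 in BAT surgery, 81 lay in cluster 22, which held no sham nucleus, while those of the shams lay mainly in clusters 1 and 13. Between 24 and 31 nuclei in each of the 3 larger sets had exactly 3 markers, the least the gate allowed, and 130, 207, 147 and 28 nuclei had 2. Hox levels summed to 526, 1272, 574 and 484 CPM. For BAT surgery over BAT sham 3 Hox genes were read, with 3 higher (15.5% of 2945 genes) and 0 lower (12.8%). These were Hoxa3 (6 and 57 UMIs, 6.14-fold, 2.65 to 17.4), Hoxc6 (12 and 38, 2.05-fold, 1.05 to 4.30) and Hoxc8 (13 and 77, 3.83-fold, 2.11 to 7.51). Each reached 50 UMIs only with its larger BAT surgery count, so the minimum left in genes that were high in that library. The 26 members below it were not read and went both ways, such as Hoxb6 (5 and 37 UMIs) and Hoxc9 (14 and 9). Hoxc10 had 12, 0, 9 and 0 UMIs, where 3 counts in place of 0 give 7.84 CPM in BAT surgery and 96.8 in BeAT surgery. Between the shams 0 Hox genes reached 50 UMIs (12.5% of 1961 genes were higher and 6.58% lower), and BeAT surgery had too few nuclei for a ratio. Gpx5 was at 10458 CPM in these BAT surgery nuclei and the 7 epithelial markers at 353. Cluster 22 was led by epididymal genes (Spag11b, Defb15 and Gpx5), with no smooth muscle marker among its 10 leading genes. The progenitor marker Pdgfra was at 16.2 CPM in BAT sham and 248 in BAT surgery, the 10 progenitor markers summed to 1589 and 2959, and the smooth muscle myosin Myh11 was at 4056 and 1682. The part of these in the Hox levels was not tested.

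Epithelial-like nuclei, found in BAT surgery alone, had a summed Hox level of 1304 CPM (1293 to 1316), next to 1272 (1162 to 1390) in the smooth muscle-like nuclei of that library, and almost no HoxC. HoxB made 50.8% and HoxD 47.0% of 50780 Hox UMIs, HoxA 2.01% and HoxC 0.122% (62 UMIs). With UMIs divided by exon length the shares were 56.5%, 41.9%, 1.52% and 0.127%. Hoxd4 had 15894 UMIs (408 CPM), Hoxd3 6069 (156), Hoxb6 6965 (179), Hoxb4 6534 (168) and Hoxb3 4943 (127). In HoxB, each gene from Hoxb1 to Hoxb9 was detected, from Hoxb1 at 3.67 CPM to Hoxb9 at 34.1. Hoxb1, a hindbrain gene, had 143 UMIs here and 0 in the other 4 classes. In HoxD, Hoxd8 and Hoxd9 were at 23.3 and 24.8 CPM and Hoxd10 at 0.283. Hoxa9 was at 3.13 CPM, and the ParaHox and Cdx genes were not read in any class, since 0 of 6 reached 50 UMIs in a pair.

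The 7 epithelial clusters shared this make-up with differences of degree. HoxC was 0.0356% to 1.01% of Hox UMIs and HoxD 29.8% to 56.5%. Hoxd4 ran from 128 to 672 CPM over the clusters and Hoxb6 from 106 to 247. Hoxb1 was at 10.7 and 6.20 CPM in clusters 21 and 23 and at 0 to 0.461 in the other 5. These clusters are of 1 library, so their spread is no spread between samples.

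Of 11 genes under the limit of 50 UMIs in every class, 3 (Hoxb13, Hoxc12 and Hoxd12) had 0 UMIs in all filtered nuclei. Hoxa13, Hoxc13, Hoxd11 and Hoxd13 had 1 each, Hoxa11 had 11, Hoxd10 had 29, Hoxd1 had 36 and Hoxc11 had 53. Hoxc11 had 34, 0, 3 and 1 UMIs in progenitors. The most posterior genes, of groups 12 and 13, thus had at most 1 UMI each.

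Of the Hox partners of the TALE class, called genes were higher in surgery in adipocytes, progenitors and endothelium, and 0 were lower. In adipocytes 1 of 7 read was higher in the BAT pair (5.42% of all genes), and 0 of 7 were called in the BeAT pair (4.81% of all genes higher). In progenitors, Meis1 was at 217, 922, 198 and 335 CPM, 4.25-fold higher in the BAT pair (3.98 to 4.55), and Meis2 at 370, 830, 394 and 552, 2.24-fold higher (2.11 to 2.39). These were 2 of 8 read, against 7.20% of all genes, with 0 lower, and in the BeAT pair 0 of 6 were called. In endothelium, Meis2 was at 25.2, 477, 19.2 and 101 CPM, 18.9-fold higher in the BAT pair (13.9 to 26.4) and 5.26-fold higher in the BeAT pair (2.94 to 9.44). Of the list, 3 of 5 were higher in the BAT pair (Pbx3, Meis1 and Meis2; 5.61% of all genes) and 3 of 3 in the BeAT pair (among them Pbx3 and Meis2; 10.1%). Epithelial nuclei had Meis1 at 5.83 and Meis2 at 1.41 CPM, and the part of progenitor RNA in the endothelial level of Meis2 was not tested.

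Few genes of the Polycomb and trithorax complexes passed the size rule. In the BAT pair of adipocytes, 2 of 12 Polycomb genes were lower, where 12.0% of all genes were, Ring1 (49.8 and 17.3 CPM, 2.88-fold, 2.23 to 3.77) and Cbx8 (3.03-fold, 1.5 to 7.13), and in the BeAT pair 1 of 12, where 15.1% of all genes were, Ring1 (60.3 and 25.8 CPM, 2.33-fold, 1.93 to 2.85). Of 7 trithorax genes 0 were called in either. In progenitors 0 of 11 Polycomb genes were called in the BAT pair and 0 of 9 in the BeAT pair, and of trithorax genes 0 of 6 and 1 of 6 (Kmt2d, higher, against 5.23% of all genes). In endothelium 1 of 7 Polycomb genes was higher in the BAT pair (Ezh2; 5.61% of all genes), and Kmt2a and Kmt2d were 2 of 6 trithorax genes higher in the BeAT pair (10.1%). The Polycomb shares in adipocytes are near those of all genes.

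Long non-coding genes of the clusters were read where they reached the minimum. In adipocytes 4 of 9 could be read in the BAT pair, with 2 higher (5.42% of all genes) and 1 lower (12.0%). Hoxd3os1 was at 9.91, 23.6, 8.81 and 8.91 CPM, 2.38-fold higher (1.84 to 3.06), and Hoxb3os at 10.9, 22.3, 11.8 and 16.0, 2.05-fold higher (1.58 to 2.64). Both lie opposite members (Hoxb3os opposite Hoxb2 and Hoxb3, Hoxd3os1 opposite Hoxd3, Hoxd4 and Hoxd8), so their reads and those of the members cannot be told apart without strand. In the BeAT pair 0 of 4 were called. In progenitors Hoxd3os1 was at 3.79 and 17.7 CPM in the BAT pair, 4.66-fold higher (2.75 to 7.95), the 1 called of 3 read (7.20% of all genes higher). In endothelium Hoxb3os was lower in the BAT pair (47.8 and 23.2 CPM, 2.06-fold, 1.10 to 4.26), where Hoxb3 was higher, and was the 1 called of 3 read (15.0% of all genes lower).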

How the data were processed

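The deposited files are UMI count matrices of genes by barcodes, 1 per library; per the labels' protocols the libraries were made with a SeekGene kit, and per the submitters' processing notes the genome build was mm10 and the tools included Seurat (versions 4.4.0 and 4). The aligner, and whether counting used strand or introns, is not given in the sources used here. Barcodes with at least 500 UMIs, 300 genes and at most 10% mitochondrial UMIs were kept, and 32285 genes were read. Doublets were marked with Scrublet through scanpy 1.11.5 (expected rate 6%) and removed: 446, 811, 623 and 647 nuclei (BAT sham and surgery, then BeAT sham and surgery). In BeAT sham the automatic threshold marked 0, so the top 6% by score were taken. All libraries were clustered together (2000 variable genes, 30 principal components, 15 neighbours, Leiden resolution 1.0, leidenalg 0.10.2). A cluster was named from marker lists where at least 3 markers were found at 2-fold or more; smooth muscle nuclei had at least 3 markers and 2-fold the signal of the next class. These thresholds were taken from an earlier look at the clusters.

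Raw UMIs were summed per library and class. Levels have exact Poisson intervals and ratios exact conditional binomial intervals (95%, scipy 1.17.1), which cover counting error only. A count of 0 was given the limit that 3 counts set, and a ratio needed 50 nuclei in each library. A gene was called higher or lower with at least 50 UMIs in both libraries together, a ratio of at least 2-fold and an interval without 1. This rule was tested on simulated data. Named genes were all Hox members with at least 50 UMIs in 1 of 5 classes, plus genes of the TALE, Polycomb, trithorax, ParaHox and Cdx, and non-coding lists. Members and lists were chosen with earlier results of these data known. Alternatives were another scaling, no minimum of UMIs, doublets kept, a marker gate per nucleus, at least 1000 UMIs per nucleus, thinning to 1000 UMIs and, chosen after seeing the data, single clusters. Values of some genes are not reported here.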

Additional observations from a re-analysis of the deposited data

Results flagged for a closer look

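Each of the 4 clusters left without a name held Hox RNA above the level in macrophages of the same library, in every library where it had at least 50 nuclei. Cluster 1, led by haemoglobin genes and Gpihbp1, had a summed Hox level of 458 CPM (425 to 492) in BAT sham, 473 (452 to 495) in BeAT sham and 328 (254 to 416) in BeAT surgery. Cluster 13, led by Rgs5, Postn and Pde3a, had 558 CPM (509 to 610) in BAT sham and 591 (542 to 643) in BeAT sham. Macrophages had 89.2 CPM in BAT sham, 86.7 in BeAT sham, 67.1 in BAT surgery and 53.7 in BeAT surgery. Adipoq was at 1314 CPM in cluster 1 of BAT sham, 1269 in BeAT sham and 661 in BeAT surgery, against 578, 823 and 288 in adipocytes. In cluster 13 of the shams it was at 390 and 535. Macrophages had 185, 239 and 18.6, so they understate adipocyte RNA in these 2 clusters. The part of adipocyte RNA in the Hox levels of clusters 1 and 13 was not tested. HoxC was the largest share in the shams, with 41.7% and 43.7% of Hox UMIs in cluster 1 and 47.4% and 40.9% in cluster 13.

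Cluster 22, found in BAT surgery alone (826 nuclei, led by Spag11b, Defb15 and Gpx5), had 908 CPM (872 to 945). HoxB made 40.2% of its Hox UMIs, HoxD 24.1%, HoxC 19.3% and HoxA 16.4%. Its Hoxb6 was at 104 CPM, Hoxd4 at 97.2, Hoxa3 at 70.4 and Hoxc8 at 68.6. Gpx5 was at 12766 CPM in it, against 4778 in epithelial nuclei and 1037 in macrophages of that library. The part of epithelial RNA in its Hox levels was not tested. Cluster 30, found in BeAT surgery alone (161 nuclei, led by Csmd1, Pcdh15 and Adgrb3), had 468 CPM (424 to 515). HoxC made 51.2% of its Hox UMIs, with Hoxc6 at 79.8 CPM, Hoxc4 at 69.8 and Hoxc5 at 46.6, while Hoxa3 was at 56.5. Clusters 22 and 30 had 0 nuclei in the shams, so they could not be compared between groups.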

How the results depend on the processing

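No paired analysis was possible because each group is 1 library. The count of 10 Hox genes lower in BAT surgery adipocytes than in BAT sham stayed within 1.5 times under every alternative run for it. Other counts of Hox genes called moved by more. Percentages in brackets are the shares of all genes read that were called the same way. With the marker gate, adipocytes had 2 higher in the BAT pair (4.56%) and 0 lower in the BeAT pair (13.6%). They had 0 lower between shams (1.04%) and 1 higher between surgery libraries (3.73%). Gated progenitors had 3 higher in the BAT pair (6.02%), and 1 higher (9.68%) and 0 lower (17.5%) in the BeAT pair. Between surgery libraries they had 1 higher (8.54%) and 0 lower (7.89%). Gated endothelium had 1 higher (6.62%) and 0 lower (14.1%) in the BAT pair. It had 0 higher (13.4%) and 0 lower (20.2%) in the BeAT pair and 0 higher (6.75%) between surgery libraries. Thinning to 1000 UMIs leaves fewer UMIs, so fewer genes reach the minimum. Thinned adipocytes had 0 higher in the BAT pair (4.90%), 2 lower in the BeAT pair (11.2%) and 0 lower between shams (1.18%). Between surgery libraries they had 0 higher (2.49%) and 0 lower (2.81%). Thinned progenitors had 3 lower in the BAT pair (10.3%), and 0 higher (7.11%) and 0 lower (11.7%) in the BeAT pair. Between surgery libraries they had 1 higher (8.09%) and 0 lower (4.33%). Thinned endothelium had 1 higher (6.68%) and 0 lower (11.1%) in the BAT pair, and 0 higher (11.3%) and 0 lower (18.3%) in the BeAT pair. It had 0 lower between shams (3.82%) and 0 higher between surgery libraries (3.83%). Median-of-ratios scaling gave 1 higher (5.95%) and 0 lower (13.3%) in BeAT pair adipocytes. At least 1000 UMIs per nucleus gave 1 higher in BeAT pair adipocytes (4.83%) and 1 lower in BeAT pair progenitors (16.6%). No minimum of UMIs gave 2 lower in BeAT pair adipocytes (9.34%) and 10 higher in BAT pair progenitors (8.01%). It gave 1 higher between sham progenitors (1.96%) and 5 lower between surgery progenitors (4.81%). In endothelium it gave 3 lower in the BAT pair (7.43%) and 2 in the BeAT pair (9.10%). Keeping doublets gave 1 higher in BeAT pair progenitors (6.62%). Of the alternatives chosen after seeing the data, adipocyte cluster 5 only gave 0 lower in the BeAT pair (10.4%) and 0 between shams (1.01%). Progenitor cluster 9 only gave 1 lower in the BAT pair (5.40%). Progenitors without cluster 9 gave 0 higher (5.89%) and 1 lower (16.4%) in the BeAT pair.

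Ratios crossed 1, or came to it, for Hoxb6 in the BeAT pair (0.991) and Hoxc8 between shams (1.0) with adipocyte cluster 5 only. Thinning turned Hoxc5 in the BeAT pair (0.935), Hoxb8 between shams (1.48) and Hoxc6 between surgery libraries (1.49). The gate turned Hoxb7 between shams (1.05), and cluster 9 only turned Hoxc8 between sham progenitors (1.08). The cause was not tested where the number of UMIs does not show it.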
